A study of Mus musculus with 4 samples.

Results

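Tumour necrosis factor, the protease that sheds it, its receptors and the proteins that bind those receptors are encoded by 10 genes examined here: Tnf, Adam17, Tnfrsf1a, Tnfrsf1b, Tradd, Traf1, Traf2, Ripk1, Birc2 and Birc3. They were chosen by symbol for these roles, with earlier results of these data known, from 55536 annotated genes. All 10 were among the 14041 with an average of 10 or more counts. RNA came from the cytosolic fraction of bone marrow-derived macrophages, primary cells grown out of marrow, from C57BL/6J mice, 15 minutes after 100 ng/ml lipid A. Lipid A is the part of bacterial lipopolysaccharide that Toll-like receptor 4 recognises. Ribosome-depleted total RNA was sequenced in 4 libraries of this 1 group, with no other allele or agent in the labels, and each library is named below by its replicate number. The labels give sex and age as not collected, and they list 1 donor record throughout. Nothing in them tells whether separate animals or cultures were used, so each p-value reflects only how far these samples scatter, which could be technical scatter. No untreated library was analysed here, so the values are levels in stimulated cells.

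TNF is made as a membrane protein that ADAM17 cuts from the cell surface. Trimers bind TNFR1, encoded by Tnfrsf1a, which recruits TRADD, the kinase RIPK1, TRAF2 and the ubiquitin ligases cIAP1 and cIAP2, encoded by Birc2 and Birc3, and from this complex NF-kB and MAP kinases are activated. TNFR2, encoded by Tnfrsf1b, has no death domain and recruits TRAF2 and TRAF1. In macrophages Tnf is a primary response gene of Toll-like receptor 4, and its RNA is short-lived because of AU-rich repeats after the coding sequence.

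Those repeats are shown first, since they set Tnf apart from the other members by sequence. The nonamer TTATTTATT, the core of the AU-rich element written as DNA, was searched on the transcript strand after the stop codon of each member's leading transcript, or of Traf1-201 for Traf1, whose leading transcript is non-coding. Tnf held 5 matches, Birc3 held 1 and the other 8 members held 0. Of 9621 genes averaging 1 TPM or more, taken by their longest coding transcript, 7.89% held a match and 0.114% held at least 5. The densest stretch of Tnf lies in exonic sequence of Tnf-201 after the stop codon, at chr17:35199681-35199710 on the minus strand of mm10, and holds 4 overlapping nonamers, in capitals.
Tnf AU-rich stretch: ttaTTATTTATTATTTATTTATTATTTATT

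Promoter windows of 250 bases before to 50 after the start came from RefSeq on GRCm38.p6, where 9 of the 10 members matched. Those of Tnf and Birc3, the members with an AU-rich match, are printed as read 5′ to 3′ on the minus strand, chr17:35201958-35202257 for Tnf and chr9:7873121-7873420 for Birc3. Capitals mark TATAAA and a degenerate kappa B pattern, GGG and CC with 5 bases of any kind between them, searched on both strands.
Tnf promoter: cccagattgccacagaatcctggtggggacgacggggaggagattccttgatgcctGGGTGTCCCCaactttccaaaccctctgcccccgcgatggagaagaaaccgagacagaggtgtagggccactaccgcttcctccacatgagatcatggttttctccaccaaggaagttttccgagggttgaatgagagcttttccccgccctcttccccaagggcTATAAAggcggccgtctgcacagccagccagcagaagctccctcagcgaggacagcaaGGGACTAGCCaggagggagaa
Birc3 promoter: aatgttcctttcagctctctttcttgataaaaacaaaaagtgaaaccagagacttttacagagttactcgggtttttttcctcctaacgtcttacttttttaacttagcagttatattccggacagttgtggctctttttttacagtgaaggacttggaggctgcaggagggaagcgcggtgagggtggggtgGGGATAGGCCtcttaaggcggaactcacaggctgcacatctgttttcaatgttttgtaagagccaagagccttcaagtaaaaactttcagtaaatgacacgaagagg
Tnf held TATAAA at base -29 from the start and was the sole matched member to hold it, against 13.6% of all 32851 windows. Its kappa B pattern matched on both strands at -194 and once at 29, and that of Birc3 once at -57. That pattern stood in 50.8% of all windows, so its presence sets no member apart. No window of the 9 members held TGANTCA, the AP-1 pattern, which 7.81% of windows held. The CRE half-site TGACG stood in windows of Traf2, Ripk1 and Birc2 and in 20.8% of all windows. These matches describe letters only.

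The libraries held 30088678 to 47961117 expected counts on annotated genes, with replicate 1 the shallowest, and a count of 0 allowed up to 0.0997 CPM, counts scaled by the library total, there from counting error. TPM, the deposited length-corrected abundance, carries the 7SL RNA genes Rn7s1 and Rn7s2 in its denominator, which took 57.1% to 63.3% of all TPM. All 10 macrophage markers were present at 1 TPM or more. Of 34 markers of 8 other cell types, those at 1 TPM or more were 2 of the 6 neutrophil markers, whose list summed to 19.0 TPM in replicate 1 and 23.6 to 34.9 TPM in the other 3, with T cell, B cell, natural killer, mast, dendritic, erythroid and stromal lists at 0 detected and Gzma at 0 counts. Replicate 1 stood apart before any member is considered: Mcm5, a replication helicase gene, stood at 25.3 TPM in replicate 1 and at 2.25 to 3.44 TPM in the other 3. Malat1, an RNA known to stay in the nucleus, stood at 306, 242, 984 and 941 TPM in replicates 1, 2, 3 and 4. The part of these differences in the results below was not tested.

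All 10 members were expressed in the cytosol, from Tnfrsf1b at 73.6 ± 20.0 TPM to Traf1 at 1.23 ± 0.417 TPM (SD, n = 4). By mean TPM the order was Tnfrsf1b, Tnf, Tnfrsf1a, Adam17, Ripk1, Birc3, Tradd, Birc2, Traf2 and Traf1. Both neighbours of Tnf in that order changed place with it between libraries: Tnfrsf1b was above Tnf in 3 of 4 libraries, and Tnf above Tnfrsf1a in 2 of 4. The second rank of Tnf rested on replicate 1, since without it Tnf averaged 29.9 TPM and Tnfrsf1a 38.5 TPM. Each of the other neighbours kept its order in 4 of 4 libraries. The ranges over libraries were separate for only 2 neighbouring pairs, Birc3 above Tradd and Traf2 above Traf1. The upstream end of the pathway, ligand, sheddase and receptors, thus held the 4 highest means. This did not hold in each library, since in replicate 2 Tnf at 12.0 TPM was below Ripk1 at 17.1 TPM. In replicates 1, 3 and 4 Tnf was above Ripk1, in replicate 3 only by 18.5 against 18.3 TPM. On the target tables, a second set of transcript estimates deposited for each library, every mean was lower and their order was the same. Tnfrsf1b stood there at 24.2 ± 3.04 TPM, Tnf at 21.1 ± 24.8 TPM and Traf1 at 0.483 ± 0.0685 TPM (SD, n = 4).

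Between libraries, the members ranged from nearly constant to widely spread. In TMM-scaled CPM, which corrects for depth and composition but not gene length, Ripk1 differed 1.04-fold between its highest and lowest library, Adam17 1.06-fold, Traf2 1.08-fold, Tradd 1.13-fold and Tnfrsf1a 1.21-fold. Tnf differed 6.55-fold, Traf1 3.06-fold, Birc3 2.15-fold, Tnfrsf1b 2.03-fold and Birc2 1.49-fold. Replicate 1 carried much of this: without it, an alternative chosen after seeing the data, Tnf differed 3.33-fold, Birc3 and Traf1 1.49-fold and 1.44-fold, Tnfrsf1b 1.14-fold and Birc2 1.12-fold. By the deviance of a Poisson fit with Benjamini-Hochberg adjustment over all genes, 7 of 10 members varied beyond counting, against 82.8% of all tested genes, a share near that background. Tradd, Traf2 and Ripk1 did not pass, with adjusted p of 0.0607, 0.599 and 0.292. The median SD of log2 CPM was 0.19 over the members and 0.25 over all tested genes.

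**Figure D1:**
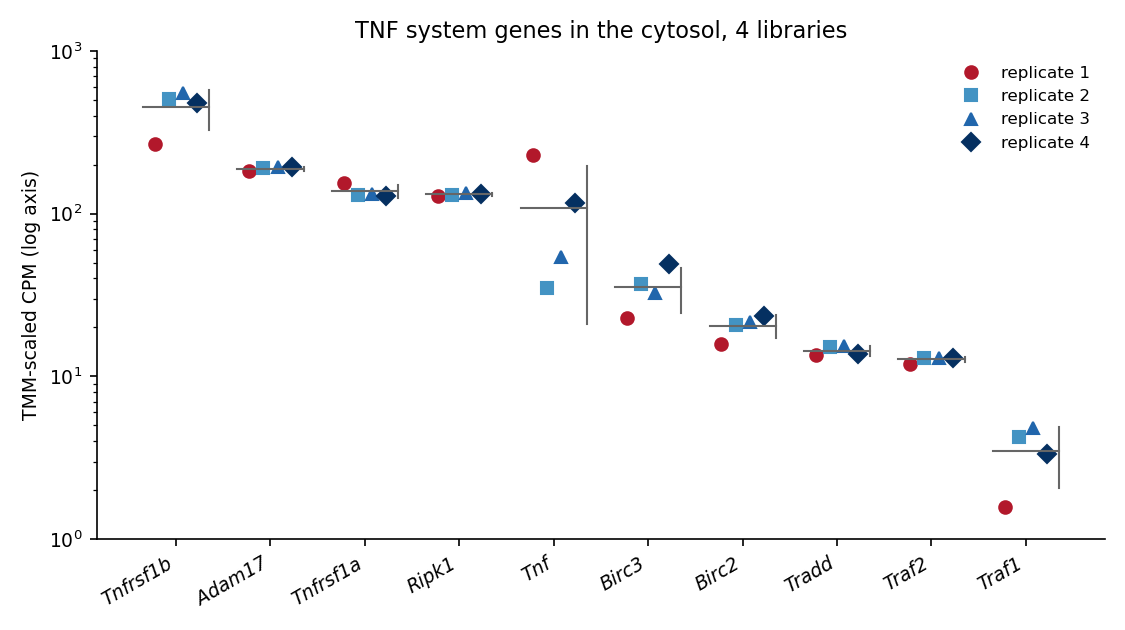
Level of each member in each library as TMM-scaled CPM on a log axis, with grey lines for the mean and its SD (n = 4); CPM is not corrected for gene length. Tnf spans 34.8 to 228 CPM, while Adam17 stays between 182 and 194 CPM and Ripk1 between 128 and 133 CPM.

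Tnf (ENSMUSG00000024401.14, chromosome 17, 35199381 to 35202007 in mm10) was the most variable member. It stood at 108, 12.0, 18.5 and 59.1 TPM in replicates 1, 2, 3 and 4, from 7272, 1604, 2019 and 5568 expected counts. Replicate 1 was highest, replicate 4 stood between, and replicates 2 and 3 were lowest. In TMM-scaled CPM, Tnf stood at 228 in replicate 1 and at 34.8, 53.8 and 116 in the other 3, so replicate 1 did not overlap them. Its SD of log2 CPM, 1.20, was at percentile 93.6 of all tested genes, and it was 0.88 without replicate 1, an alternative chosen after seeing the data. In bulk RNA, fewer cells with a transcript and less transcript per cell cannot be told apart.

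A fit over all genes with edgeR's quasi-likelihood test set each library against the remaining 3. Its p-values rest on the spread of those 3, drawn toward a trend over all tested genes. The lone library is assumed to vary like them. For Tnf in replicate 1 the log2 fold was 1.74 ± 0.59 (SE), with an adjusted p of 0.100, which did not pass 0.05. This call depended on single libraries: without replicate 2 the fold was 1.43 with an adjusted p of 0.0393, and without replicate 4 it was 2.29 with an adjusted p of 0.00584. Over 9 alternatives the adjusted p ranged from 0.00584 to 0.222, and 3 passed. The gene was also not called in replicates 2, 3 and 4.

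The chromosomal neighbours of Tnf did not share its level. Lta, the lymphotoxin alpha gene beside it, had 0, 1, 1 and 0 expected counts in replicates 1, 2, 3 and 4. Ltb, the lymphotoxin beta gene on the other side, had 10, 17, 15 and 7. Lst1, a myeloid transcript further along, stood at 144 ± 34.7 TPM and Nfkbil1 at 5.11 ± 1.13 TPM (SD, n = 4). Lst1 was lowest in replicate 3, at 109 TPM, and highest in replicate 4, at 192 TPM, a different order from Tnf.

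The profile most like that of Tnf over the 4 libraries belonged to Phlda1, with a root mean square difference of 0.20 in centred log2 CPM. Next came mt-Co2, a mitochondrially encoded oxidase subunit, at 0.32, Tyms, the thymidylate synthase gene, and Dlgap5, a mitotic spindle gene, both at 0.35, and Fanci, a DNA repair gene, at 0.40. These were the nearest of 10409 genes averaging 100 or more counts, whose median was 1.02. Phlda1 stood at 12.0 CPM in replicate 1 and at 2.40, 3.65 and 6.07 CPM in replicates 2, 3 and 4, the same order as Tnf. The other members lay farther, from 0.96 for Tnfrsf1a to 1.61 for Traf1. With 4 libraries such likeness is a description.

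Adam17, the sheddase gene (ENSMUSG00000052593.16, chromosome 12, 21323509 to 21373632), was among the steadiest members. It stood at 29.2, 22.2, 22.7 and 34.2 TPM in replicates 1, 2, 3 and 4, and at 182, 189.7, 192 and 194 TMM-scaled CPM. Replicates 2 and 3 were lowest in TPM, whereas in CPM the libraries lay within 1.06-fold. Its SD of log2 CPM, 0.04, was at percentile 1.47 of all tested genes, which include genes with far fewer counts. The ratio of Adam17 to Tnf in TPM was 0.271, 1.85, 1.23 and 0.578 in replicates 1, 2, 3 and 4, so the substrate's RNA exceeded the sheddase's in replicates 1 and 4 and not in replicates 2 and 3. Adam17 shares 311 bases with Iah1 on the opposite strand, and no source used here gives whether strand was used in counting.

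Tnfrsf1a (ENSMUSG00000030341.17, chromosome 6, 125349362 to 125362484) encodes the death domain receptor TNFR1. It stood at 54.1, 33.1, 34.0 and 48.5 TPM in replicates 1, 2, 3 and 4. In TMM-scaled CPM it stood at 155 in replicate 1 and at 130.3, 132 and 129 in the other 3, so replicate 1 was above a tight group. The log2 fold of replicate 1, 0.25 ± 0.08 (SE), did not pass by edgeR, with an adjusted p of 0.0837.

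Tnfrsf1b (ENSMUSG00000028599.10, chromosome 4, 145213463 to 145246870) encodes TNFR2 and went the other way. It stood at 50.3, 69.6, 75.3 and 99.0 TPM in replicates 1, 2, 3 and 4, from 8604, 23357, 20537 and 23140 expected counts. On the target tables it stood at 26.1, 23.5, 20.3 and 27.0 TPM in the same order, so replicate 1 was not lowest there in TPM. In TMM-scaled CPM replicate 1 had 269, against 506, 547 and 481 in the other 3, which it did not overlap. It was lower in replicate 1 by edgeR, with a log2 fold of -0.93 ± 0.13 (SE) and an adjusted p of 0.0112. It passed in each of 9 alternatives, with folds from -1.04 to -0.77 and adjusted p from 6.56e-14 to 0.0304. Its SD of log2 CPM was 0.47, and 0.09 without replicate 1.

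Within a library, the receptor balance therefore differed in replicate 1. The ratio of Tnfrsf1b to Tnfrsf1a in TPM was 0.930, 2.10, 2.22 and 2.04 in replicates 1, 2, 3 and 4. Replicates 2, 3 and 4 held more TNFR2 than TNFR1 RNA, and replicate 1 held nearly equal amounts. The mean log2 ratio was 0.79 ± 0.60 (SD, n = 4), above 0 in 3 of 4 libraries, with an exact two-sided sign-flip permutation p of 0.250. The smallest such p that 4 libraries allow is 0.125.

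**Figure D2:**
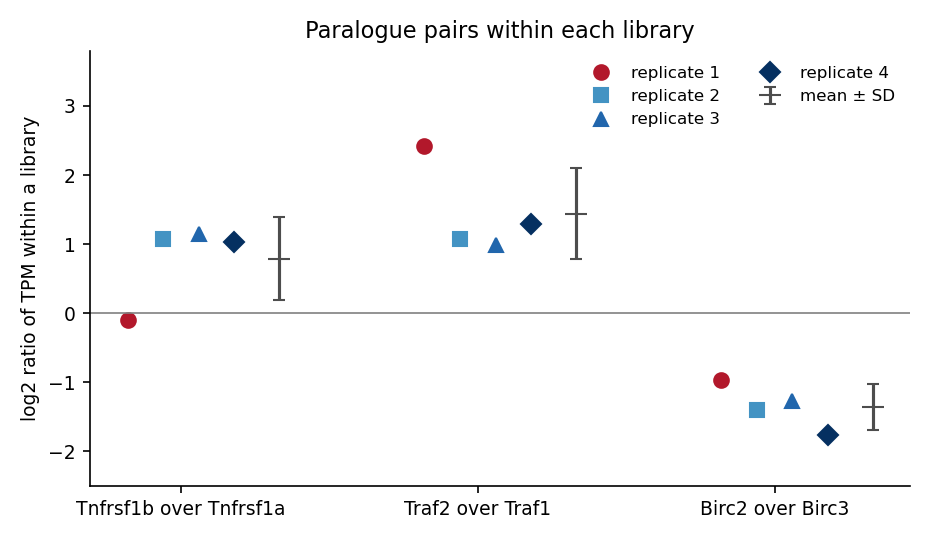
Log2 ratio of TPM within each library for the receptor, TRAF and IAP pairs, with the mean and SD (n = 4) in grey; 0 means equal levels. The receptor ratio of replicate 1 lies at -0.10 and those of the other 3 at 1.03 to 1.15, the TRAF ratios lie above 0 in 4 of 4 libraries and the IAP ratios below 0 in 4 of 4.

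Among the adaptors, Tradd and Traf2 were steady and Traf1 was not. Tradd (ENSMUSG00000031887.13, chromosome 8, 105258286 to 105264609), which links TNFR1 to RIPK1 and TRAF2, stood at 6.31, 5.13, 5.33 and 6.81 TPM in replicates 1, 2, 3 and 4. Traf2 (ENSMUSG00000026942.13, chromosome 2, 25517982 to 25546940), which brings the cIAP ligases to both receptors, stood at 3.47, 2.77, 2.64 and 4.02 TPM. In TMM-scaled CPM, Traf2 had 11.9 in replicate 1 and 12.9 in each of the other 3. Neither passed in replicate 1, with log2 folds of -0.12 ± 0.12 and -0.11 ± 0.10 (SE).

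Traf1 (ENSMUSG00000026875.14, chromosome 2, 34941750 to 34961772), a TRAF without a RING finger and itself an NF-kB target, was the lowest member. It stood at 0.650, 1.31, 1.34 and 1.64 TPM in replicates 1, 2, 3 and 4, from 50, 195, 180 and 160 expected counts. In TMM-scaled CPM replicate 1 had 1.57, below the 4.22, 4.80 and 3.33 of the other 3. It was lower in replicate 1 by edgeR, with a log2 fold of -1.39 ± 0.33 (SE) and an adjusted p of 0.0391. Without replicate 3 the adjusted p was 0.0812, and over 9 alternatives it ranged from 0.0126 to 0.0908. Traf2 exceeded Traf1 within every library, 5.34-fold, 2.11-fold, 1.97-fold and 2.45-fold in TPM in replicates 1, 2, 3 and 4. The mean log2 ratio was 1.44 ± 0.66 (SD, n = 4), and 2 of 16 sign patterns of the exact permutation lay as far from 0, the fewest possible.

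Ripk1 (ENSMUSG00000021408.15, chromosome 13, 34002363 to 34037147), the kinase that directs the complex to survival or death, was the steadiest member in TMM-scaled CPM over the 4 libraries, while in TPM it was Tradd, at 1.33-fold between libraries. Ripk1 stood at 22.7, 17.1, 18.3 and 26.3 TPM in replicates 1, 2, 3 and 4, and at 128, 130.5, 133 and 132 TMM-scaled CPM. The libraries were thus close together in CPM. The SD of log2 CPM of Ripk1, 0.02, was at percentile 0.292 of all tested genes, which include genes with far fewer counts. In TPM the same gene differed 1.54-fold, with replicates 2 and 3 lowest, the libraries with 63.3% and 60.9% of TPM on 7SL RNA genes, against 57.5% and 57.1% in replicates 1 and 4. The part of that share in the difference was not tested. Ripk1 overlaps Serpinb6a by 432 bases on the opposite strand and a processed pseudogene, Gm17084, on its own, so its count may include their reads.

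The IAP genes are neighbours on chromosome 9, and both had their lowest TMM-scaled CPM in replicate 1. Birc2 (ENSMUSG00000057367.12, 7818227 to 7837064), encoding cIAP1, stood at 3.87, 3.64, 3.83 and 6.46 TPM in replicates 1, 2, 3 and 4. In TMM-scaled CPM it stood at 15.7 in replicate 1 and at 20.8, 21.5 and 23.4 in the other 3, with no overlap. In TPM, by contrast, replicate 1 lay within the range of the others. On the target tables Birc2 was highest in replicate 1, at 2.22 TPM against 1.34, 1.08 and 1.84 TPM, though its edgeR log2 fold there was -0.36. It was lower in replicate 1 by edgeR, with a log2 fold of -0.48 ± 0.11 (SE) and an adjusted p of 0.0399. Without replicate 3 the adjusted p was 0.0727, and with scaling to library totals alone the fold was -0.37 with an adjusted p of 0.199, at the end of a range over 9 alternatives that began at 0.0253.

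Birc3 (ENSMUSG00000032000.17, 7848699 to 7873186), encoding cIAP2 and an NF-kB target, stood at 7.59, 9.68, 9.33 and 21.9 TPM in replicates 1, 2, 3 and 4. In TMM-scaled CPM replicate 1 had 22.7, below the 36.8, 32.7 and 48.7 of the other 3, and replicate 4 was highest. The log2 fold of replicate 1 was -0.80 ± 0.25 (SE) and did not pass by edgeR, with an adjusted p of 0.0786. Without replicate 4 it was -0.69 with an adjusted p of 0.0240, and over 9 alternatives the adjusted p ran from 0.00590 to 0.183. Birc2 was below Birc3 in each library, with TPM ratios of 0.510, 0.376, 0.411 and 0.295 in replicates 1, 2, 3 and 4 and a mean log2 ratio of -1.36 ± 0.33 (SD, n = 4), as far from 0 as 2 of 16 sign patterns. Its size depended on the tables, at -2.03 on the target tables, a second set of transcript estimates deposited for each library.

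As a set, 3 of 10 members differed in replicate 1 from the other 3, Tnfrsf1b, Traf1 and Birc2, against 22.0% of all tested genes. All 3 were lower, where 7.58% of all genes were lower and 14.5% higher, and a count this small beside that background is no result about the set. The median log2 fold over the members was -0.12, and -0.00 over all tested genes. The count was 1 without replicate 3 and on the target tables, 4 without replicate 2, and 5 without replicate 4 and with no filter on low counts. In replicates 2, 3 and 4, edgeR called 0 members and 0% of all genes. At an unadjusted p under 0.05 it listed 0 members in each, and DESeq2 called 0 members in each. Over all genes, edgeR listed 277, 135 and 104 at that unadjusted p in replicates 2, 3 and 4, and DESeq2 called 8, 3 and 17. For comparison, replicate 1 was also the shallowest library and the one with the highest Mcm5 level, and the part of either in these folds was not tested.

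**Figure D3:**
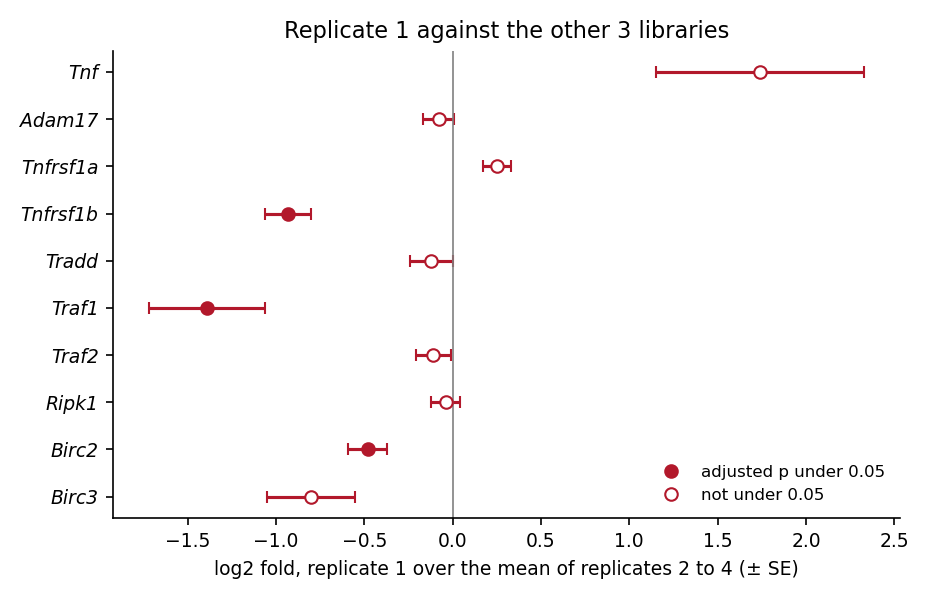
Log2 fold of each member in replicate 1 over the mean of replicates 2 to 4 with its SE, from edgeR's fit over all genes; filled points have an adjusted p under 0.05. Tnfrsf1b, Traf1 and Birc2 are filled and lie below 0, and Tnf lies farthest above 0, at 1.74, with the widest error.

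Isoforms of the members fell into a steady and a mixed class. The 10 genes have 53 annotated transcripts. In the deposited percentages per isoform, Tnf-201 held 100.0% of Tnf in every library, Tnfrsf1b-201 held 98.5% to 99.5%, Tnfrsf1a-201 held 97.9% to 99.8%, Tradd-201 held 94.0% to 98.7% and Adam17-201 held 94.2% to 96.3%. Ripk1 was divided between Ripk1-201 at 75.8% ± 0.422 and Ripk1-203, with a longer annotated sequence, at 21.4% ± 1.75 (SD, n = 4). Traf2 was divided between Traf2-202 at 57.6% ± 4.34 and Traf2-201 at 40.4% ± 3.44.

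Both IAP genes and Traf1 were less settled. Birc2-204 held 47.4%, 54.6%, 48.4% and 57.4% of Birc2 in replicates 1, 2, 3 and 4, and its retained intron transcript Birc2-203 held 4.47%, 3.47%, 6.98% and 11.7%. For 5 of 10 members, retained intron transcripts held a higher share in replicates 3 and 4 than in replicates 1 and 2. These were Birc2, Adam17, Traf1, Traf2 and Ripk1, and replicates 3 and 4 are the libraries with more Malat1. Tnf, Tnfrsf1b and Birc3 have no annotated transcript of that type and could not show it. How many of all genes show this pattern was not determined, so the count is no result about the members. For Ripk1 the share was 1.27%, 1.08%, 5.64% and 3.34% in replicates 1, 2, 3 and 4. Over all genes such transcripts held 0.895%, 0.664%, 0.870% and 1.43% of TPM in replicates 1, 2, 3 and 4. That total includes the 7SL RNA genes, at 57.5%, 63.3%, 60.9% and 57.1% of TPM in the same order. Shares within a gene do not, so these percentages were not comparable with those of the members. The relation to Malat1 was not tested. Birc3-201 held 79.0%, 72.3%, 63.3% and 59.1% of Birc3 in replicates 1, 2, 3 and 4, with the rest mainly on short transcripts of 355 to 795 bases. Traf1 was spread over its 9 transcripts, led by the non-coding Traf1-203 at 29.6% ± 4.83 (SD, n = 4), from few reads. By mean share, the leading transcript was the same in both sets of transcript tables for 10 of 10 members. Library by library it was the same in 4 of 4 for each member except Traf1, in 2 of 4, where 88.2% to 90.2% of 9123 genes with several transcripts had the same one. The share itself could differ, since Birc3-201 held 42.6% in replicate 1 in the target tables and 79.0% in the isoform percentages.

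**Figure D4:**
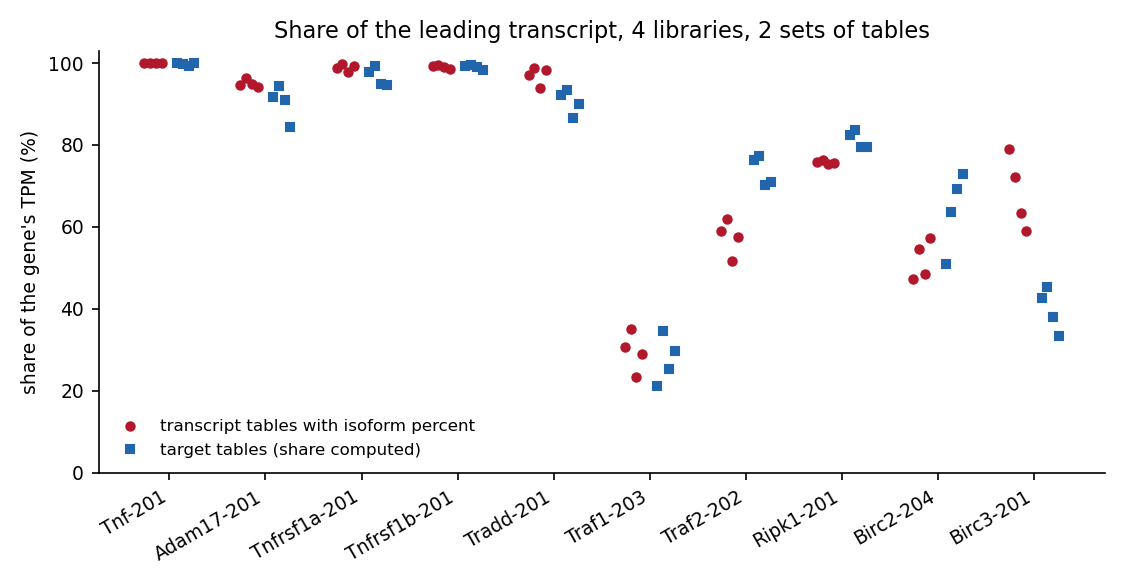
Share of each member's TPM on its leading transcript in replicates 1 to 4, left to right within each cluster, from the deposited isoform percentages (red circles) and from the target tables (blue squares). The shares of Tnf, the sheddase, the receptors and Tradd lie above 80% in both, and those of Traf1 lie lowest, from 23.5% to 35.2% in the isoform percentages.

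Around the members, 71 other genes of the TNF pathway were examined, of which 59 averaged 1 TPM or more and 67 could be tested. In replicate 1, edgeR called 13 of the 67, 6 higher and 7 lower, against 14.5% of all genes higher and 7.58% lower. In replicates 2, 3 and 4 it called 0, with 2, 0 and 1 at an unadjusted p under 0.05, and DESeq2 called 1 in replicate 2, Egr1, and 0 in replicates 3 and 4. The median log2 fold of the list in replicate 1 was -0.05.

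The shedding group had 1 of 6 genes higher in replicate 1. This was Adam10, a related sheddase, at 34.5 TPM in replicate 1 and 18.3 to 27.0 TPM in the other 3, with a log2 fold of 0.43 ± 0.10 (SE) and an adjusted p of 0.0389, which was 0.0817 without replicate 2 and 0.113 without replicate 4. Rhbdf2, encoding the iRhom that carries ADAM17 to the surface, stood at 8.16 ± 1.97 TPM (SD, n = 4) and did not pass, with -0.07.

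Of 17 genes listed for ubiquitin and kinase steps around the receptor complex, edgeR called Traf3 and Xiap higher in replicate 1 and Ikbke lower. Each of these calls was lost when at least 1 replicate was left out, and those of Xiap and Ikbke also under another scaling. Traf3 had an adjusted p of 0.0512, 0.0583 and 0.0802 without replicates 2, 3 and 4, and Xiap one of 0.0782, 0.0727 and 0.129. Ikbke had one of 0.0520 without replicate 3. Of 9 alternatives, Traf3 and Ikbke passed in 6 and Xiap in 5. The most abundant, Tab2 of the TAK1 kinase complex at 25.2 ± 5.52 TPM and Sharpin of the linear ubiquitin ligase at 23.1 ± 4.71 TPM (SD, n = 4), did not pass, with -0.06 and -0.21. Of 10 deubiquitinases and ubiquitin binders, 2 were lower. Optn, a binder of linear chains, stood at 6.46 TPM in replicate 1 and 9.06 to 14.3 TPM in the other 3, with a log2 fold of -0.97 ± 0.09 (SE) and an adjusted p of 0.00506. Tnip1, encoding a partner of A20, stood at 12.6 TPM in replicate 1 and at 15.4 to 25.4 TPM in the other 3, with -0.86 ± 0.10 and an adjusted p of 0.00661. Both passed in 9 of 9 alternatives. Tax1bp1, another partner of A20 and the most abundant of the group at 43.5 ± 7.11 TPM, had -0.26 and did not pass.

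Of 9 genes listed around the cell death complex, edgeR called Ripk3 higher in replicate 1 and Zbp1 lower. Ripk3 passed in 7 of 9 alternatives, not by DESeq2 nor without replicate 4, where its adjusted p was 0.0588. Zbp1, a nucleic acid sensor that binds RIPK3, stood at 18.0 TPM in replicate 1 and at 20.4 to 38.4 TPM in the other 3, with a log2 fold of -1.06 ± 0.14 (SE) and an adjusted p of 0.00982, and it passed in 9 of 9. Mapkapk2, the kinase that phosphorylates RIPK1, at 36.5 ± 7.33 TPM, and Cflar, the caspase-8 inhibitor, at 27.3 ± 6.07 TPM (SD, n = 4), did not pass, with -0.27 and 0.19. Mapkapk2 passed in 2 of 9 alternatives, by DESeq2 and with the higher count filter, over a range of adjusted p from 0.0323 to 0.571.

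Of 11 genes that control Tnf transcription or its RNA, 1 was higher, Elavl1, and 1 lower, Nfatc1. Elavl1 passed in 8 of 9 alternatives, with an adjusted p of 0.0536 without replicate 4. Nfatc1 passed in 6, not with library totals, on the target tables or without replicate 2, where its adjusted p was 0.0688. Zfp36, whose protein binds the AU-rich repeats of Tnf RNA and speeds its decay, stood at 127, 80.8, 160.3 and 236 TPM in replicates 1, 2, 3 and 4. It was lowest in replicate 2 and highest in replicate 4, an order other than that of Tnf, and its log2 fold in replicate 1, -0.49 ± 0.41 (SE), did not pass, with an adjusted p of 0.440. Zfp36l1, its relative, stood at 60.0 ± 15.5 TPM (SD, n = 4) with -0.33, and it passed by DESeq2 alone of 9 alternatives.

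Of 14 tested related ligands and receptors among 18 listed, 1 was higher in replicate 1 and 2 were lower. Tnfrsf11a, the receptor RANK, stood at 30.9 TPM in replicate 1 and at 11.7 to 14.9 TPM in the other 3, with a log2 fold of 0.91 ± 0.19 (SE) and an adjusted p of 0.0285. Tnfrsf14, the receptor HVEM, stood at 9.94 TPM in replicate 1 and at 21.4 to 41.8 TPM in the other 3, with -1.66 ± 0.15 and an adjusted p of 0.00446. Tnfsf12, the ligand TWEAK, stood at 38.1 TPM in replicate 1 and at 40.1 to 58.9 TPM in the other 3, with -0.57 ± 0.11 and an adjusted p of 0.0245. Tnfrsf14 and Tnfrsf11a passed in 9 of 9 alternatives and Tnfsf12 in 7. The ligand genes Lta, Tnfsf11 and Fasl and the receptor gene Tnfrsf9 fell below the count filter.

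**Figure D5:**
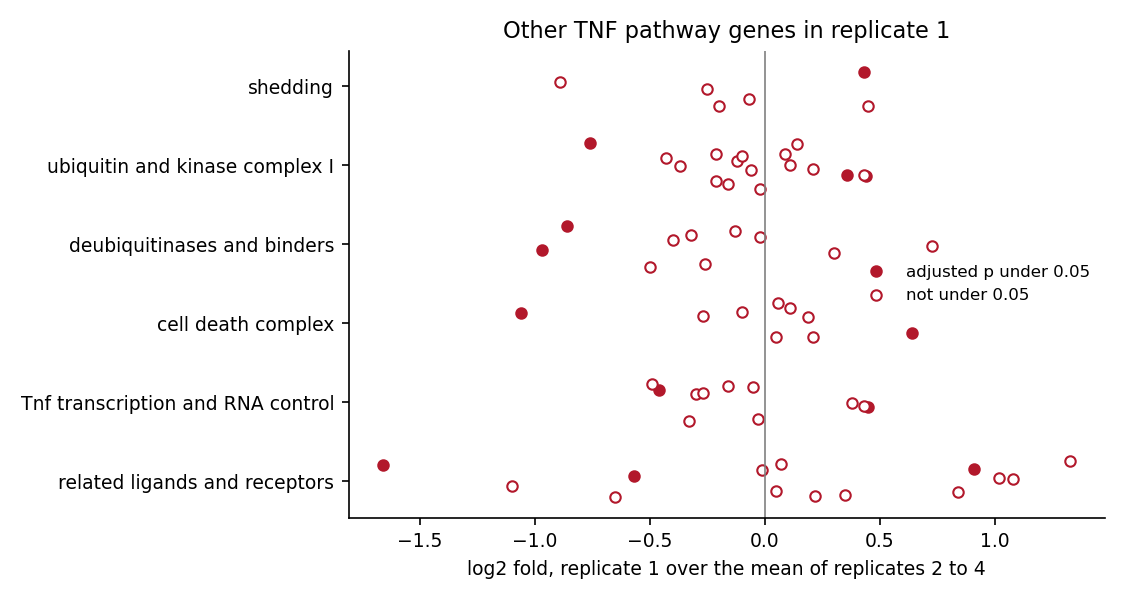
Log2 fold in replicate 1 over the mean of replicates 2 to 4 for the 67 tested pathway genes, by group, with filled points for an adjusted p under 0.05 by edgeR; vertical scatter within a group only separates points. Filled points lie on both sides of 0, from Tnfrsf14 at -1.66 to Tnfrsf11a at 0.91.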

How the data were processed

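Cytosolic total RNA was measured in 4 libraries of 1 group, and the replicate numbers are those of the labels. The authors deposited a gene table and 2 transcript tables per library. The expected counts and TPM of the gene tables, and the isoform percent of the transcript tables, are as deposited by the authors. The target tables hold estimated counts and TPM, as deposited by the authors. Per the labels the assembly is mm10, and the annotation is GENCODE M21 per the text deposited with the files. No source used here names the aligner, the quantifiers, their versions or the use of strand.

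The 26345 features that name no gene held 0.0267% to 0.407% of the expected counts and entered neither library sizes nor tests. Expected counts were rounded. Genes averaging 10 or more counts were scaled by TMM and tested in edgeR 4.0.16 under R 4.3.3, each replicate against the other 3, with Benjamini-Hochberg adjustment over 14041 genes and a threshold of 0.05. Log2 CPM used a prior count of 2. The scripts were tested on simulated data. DESeq2 1.42.0, other scalings, filters, the target tables and leaving out each replicate were alternatives. No 2 libraries matched within counting noise, since the chi-square of each pair was 56.0 to 212 times its degrees of freedom. Intervals and floors of 3 counts cover counting error only, because the reads carry no molecular identifiers and are not independent. Python 3.11.15, numpy 2.4.6, pandas 2.3.3 and matplotlib 3.10.9 served for the other steps.

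The members, lists and tests were chosen with earlier results of these data known. Named were all members, in each pathway group the 2 most abundant genes, up to 4 called pathway genes per replicate with the largest folds, the 5 genes nearest to Tnf in profile, and 4 neighbours of Tnf. Of the other pathway genes called, Traf3, Xiap, Ikbke, Ripk3, Elavl1 and Nfatc1 are named because they are few, after their values were seen, and so are Egr1 and the 4 genes under the count filter.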

Additional observations from a re-analysis of the deposited data

Results flagged for a closer look

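Within the group of 4 libraries, 33 sets of values were examined for 1 library far from the others, by the gap to its nearest neighbour over the whole range, against Dixon's critical value for 4 samples. For a single set, chance marks about 1 in 20, and 5 of the 33 were marked. The sets share libraries and genes, so their count cannot be set against that rate. For the log2 CPM of Tnfrsf1a the share was 0.844, with replicate 1 above the other 3. For the log2 CPM of Traf2 it was 0.950, with replicate 1 lowest, although the levels differ only 1.08-fold. For the TPM of Birc2 it was 0.918 and for the TPM of Birc3 it was 0.854, both with replicate 4 highest. For the log2 ratio of Tnfrsf1b to Tnfrsf1a it was 0.906, with replicate 1 lowest.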

How the results depend on the processing

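No pairing of libraries between groups was possible because the libraries form 1 group, and only ratios of 2 genes were taken within a library. The number of members called in replicate 1 was 3, and it was 5 with no filter on low counts, 1 on the target tables and 1 to 5 when 1 replicate was left out. The pathway count in replicate 2 was 0 and became 1 by DESeq2, with 0 to 1 when 1 replicate was left out. The log2 ratio of Tnfrsf1b to Tnfrsf1a was 1.68 in CPM, and that of Birc2 to Birc3 was -0.75 in CPM and -2.03 on the target tables. CPM is not corrected for length, which by construction moves a ratio of 2 genes. Reversed signs in replicate 1 were all small: Adam17 had 0.04 with library totals and 0.06 on the target tables, Ripk1 0.07 and 0.11, Rhbdf2 0.04 and 0.11, and Tab2 0.05 and 0.09, while Traf2 had 0.04 on the target tables. Library totals moved the median fold of all genes in replicate 1 to 0.11. Tnf in replicate 4 had -0.29 without replicate 2, -0.18 without replicate 3 and 1.40 without replicate 1. In TMM-scaled CPM, Tnf stood at 228, 34.8, 53.8 and 116 in replicates 1, 2, 3 and 4. By construction, its fold therefore shifts with the libraries that remain for comparison. The cause of the spread between libraries was not tested. Of the fold values under alternatives, 232 kept their sign and their side of the threshold, 11 changed sign, 9 newly passed and 9 no longer passed. Taking the 7SL RNA genes out of the total raises the TPM of every gene by construction, and so that of 10 of 10 members. The mean TPM of every member was lower on the target tables, by its SD over libraries or more for 8 of 10. Leaving out replicate 1, an alternative added after seeing the data, lowered the SD of log2 CPM of 10 of 10 members. In how many of all genes it did so was not determined, so the count is no result about the members. Without replicate 1, 5 of 10 members and 60.1% of all tested genes varied beyond counting, against 7 and 82.8% with it. Among the members Traf1 had the fewest counts, 50 to 195.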
